A study of Mus musculus with 35 samples.

Results

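The genes described here are the secreted and membrane parts of the Wnt pathway that act outside the cell: the Wnt ligands, their Frizzled (Fzd) and Lrp receptors, and the secreted proteins that block them. They were chosen by name, as every gene whose full symbol is Wnt, Fzd, Sfrp or Dkk with its number, or is Frzb, Wif1, Porcn, Wls, Lrp5 or Lrp6, and no measured value entered the choice. This gave 43 of the 54446 genes measured: 19 ligands, 2 genes that process the ligands, 10 Frizzled receptors, 2 co-receptors, 6 antagonists that bind Wnt proteins and 4 genes of the Dkk family.

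Wnt proteins are secreted lipid-modified signals. Porcn attaches the lipid in the endoplasmic reticulum, and Wls carries the finished ligand to the cell surface. At the receiving cell, a Wnt protein joins a Frizzled receptor to Lrp5 or Lrp6, which frees β-catenin from a destruction complex so that it acts with Tcf and Lef factors in the nucleus, while other Wnt proteins act through Frizzled with Ror or Ryk receptors and without β-catenin. The Sfrp proteins, Frzb (also called sFRP3) and Wif1 bind Wnt proteins in the extracellular space, whereas Dkk1 binds Lrp5 and Lrp6. In the mouse embryo, Wnt3 is required for the primitive streak to form, and the anterior visceral endoderm secretes Dkk1 and the Nodal and Wnt antagonist Cer1 on the opposite side of the epiblast.

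RNA was sequenced in 27 libraries, 3 for each of 4 mouse cultures and 5 embryonic stages, to ask how far epiblast stem cells (EpiSCs) grown in 3D resemble conventional EpiSCs and the epiblast. The ESC-derived 3D EpiSCs came from wild-type embryonic stem cells (ESCs) of the E14 line and those called embryo-derived started from the epiblast at E5.5, and both were grown in 3D Matrigel with FGF2, ActivinA, the tankyrase inhibitor XAV and the Bmp inhibitor Noggin. The 2D EpiSCs were made by converting ESCs with FGF2 and ActivinA on a flat surface, and the epiblast-like cells (EpiLCs) were ESCs kept for 48 h in FGF2 and ActivinA. Between the 3D and 2D EpiSCs the medium thus changed together with the dimension, so that their shares in a difference cannot be told apart, and XAV, which lowers Wnt signalling by stabilising Axin, was present only in 3D. Between the 2 kinds of 3D EpiSCs the origin changed together with the mouse background. The same holds between the embryo-derived 3D EpiSCs and the 2D EpiSCs or EpiLCs, which were made from ESCs. There, origin and background changed on top of medium and dimension, and these cannot be told apart. The embryos were untreated and are labelled wild-type, strain CD-1 and male/female for every stage, whereas the methods of the study give matings of CD1 or Pdgfra:H2B-GFP reporter mice and no sexing. They were taken as the inner cell mass (ICM) at E3.5 and the epiblast at 4 later stages, E4.5 to E7.5 in steps of 1 day, with several embryos pooled per library. The ICM was cut out with a laser, the E4.5 epiblast was freed by immunosurgery and picked as cells without a Pdgfra reporter, and visceral endoderm and extra-embryonic ectoderm were removed by hand from E5.5 on.

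Values are TPM, the share of all transcripts in parts of a fixed total, which are scaled by transcript length and can be compared between genes of a library. Cultures and embryos were made with different kits, poly-A capture for the cultures and ribosomal depletion of total RNA for the embryos, so their levels are given side by side and were not tested against each other. Differences are on the log2(TPM + 1) scale, which makes those of low genes smaller than on the TPM scale, and were tested with limma within cultures or within embryos, with the Benjamini-Hochberg adjustment over all genes of a comparison. A gene is called higher or lower where the adjusted p was below 0.05 and the log2 difference was above 1 in size. Whether the libraries of compared groups overlap is given for single genes. The share of all genes without overlap was not taken, so a lack of overlap is no further support for a call. In bulk RNA, fewer cells of a type and less RNA per cell cannot be told apart.

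The libraries carried the markers of their labels together with those of other tissues. The epiblast markers, a list of 7 genes with Pou5f1 among them, summed to 3375 to 3976 TPM in the cultures and to 819 to 3498 TPM in the embryos. A list of 7 markers of trophectoderm and extra-embryonic ectoderm summed to 297 to 326 TPM at E3.5 and to 412 to 428 TPM at E4.5, with Elf5 at 124, 126 and 130.0 TPM in the 3 E4.5 libraries. This list summed to 14.3 to 17.3 TPM at E5.5, 26.7 to 32.7 TPM at E6.5, 98.0 to 110 TPM at E7.5 and at most 26.0 TPM in the cultures. Markers of primitive and visceral endoderm, 10 genes, summed to 870 to 1451 TPM from E5.5 to E7.5 and to at most 69.0 TPM in the cultures, where Afp was at or below 0.128 TPM and Ttr at or below 0.259 TPM. A list of 6 nascent mesoderm genes summed to 97.1 to 195 TPM in embryo-derived 3D EpiSCs, 54.1 to 57.7 TPM in ESC-derived 3D EpiSCs and 83.2 to 94.1 TPM in 2D EpiSCs, and 5 fibroblast genes to at most 3.87 TPM outside 2D EpiSCs (8.84 to 10.9 TPM) and E7.5 (14.6 to 16.7 TPM). Libraries labelled ICM or epiblast are described by these labels below, and the part of other tissues in their values was not tested.

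In 3 of the 4 cultures, a pair of libraries differed very little and the third stood apart. The median absolute log2 difference over the tested genes was 0.0610 between replicates 1 and 2 of the 3D culture from ESCs, 0.0569 between replicates 2 and 3 of that from embryos and 0.0649 between replicates 1 and 2 of the 2D culture, against 0.103 to 0.271 for every other pair of one group. Whether such a pair shares a culture is not given in the labels, and p-values then measure the spread between these libraries only. Replicate 3 of the ESC-derived 3D EpiSCs had Sox17 at 6.73 TPM against 0.262 and 0.234 TPM in the others. Replicate 1 of the embryo-derived 3D EpiSCs had the mesoderm gene T, or Brachyury, at 54.6 TPM against 21.4 and 22.0 TPM. Replicate 3 of the 2D EpiSCs had the endoderm gene Gata4 at 3.90 TPM against 10.6 and 10.3 TPM. Results that rest on these 3 libraries are given with and without them. Without them, each of these EpiSC groups holds only its near-identical pair. The spread behind such p-values comes from these pairs and the EpiLCs, so a smaller p-value there is no stronger support.

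Of the 43 genes, 33 were above 2 TPM in at least 3 of the 27 libraries. The other 10 were Wnt1, Wnt7a, Wnt8b, Wnt9b, Wnt10a, Wnt10b, Wnt16, Wif1, Dkk2 and Dkk4, and their highest value in any library was 1.23 TPM, of Dkk4 at E7.5. Of the 33, 26 could be tested in the cultures and 28 in the embryos after the filter for autosomal protein-coding genes above 2 TPM in at least 3 libraries of the fit, and the X-linked Porcn is given from a fit with all chromosomes. Some genes passed the filter through the group in which they were highest, which were Wnt4, Wnt7b, Wnt9a, Sfrp5 and Fzd9 in the cultures and Wnt2, Wnt5a, Dkk3, Fzd1 and Fzd4 in the embryos. The filter favoured a difference between groups in these genes, although Fzd9 was called in no culture comparison. A count of called genes therefore describes the genes that passed and is no support for a statement on the pathway. The 10 genes Wnt5a, Wnt5b, Wnt6, Wnt7b, Wnt11, Wls, Fzd3, Fzd5, Fzd6 and Sfrp2 overlap an antisense gene, and the strand setting of the counting is not given in the sources used here.

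For the genes on which the cultures differed most, 4 promoter windows are shown because their genes moved between cultures or stages. Each runs from 250 bases before to 50 bases after the start given by RefSeq on GRCm38.p6, with the words of the Tcf/Lef motif (the word CTTTGAA, the word CTTTGAT, the word CTTTGTA or the word CTTTGTT, on either strand) in capitals. The windows are Wnt3 at chr11:103773925-103774224 on the plus strand, Dkk1 at chr19:30549447-30549746 on the minus strand, Sfrp5 at chr19:42202203-42202502 on the minus strand and Wls at chr3:159839400-159839699 on the plus strand.
Wnt3: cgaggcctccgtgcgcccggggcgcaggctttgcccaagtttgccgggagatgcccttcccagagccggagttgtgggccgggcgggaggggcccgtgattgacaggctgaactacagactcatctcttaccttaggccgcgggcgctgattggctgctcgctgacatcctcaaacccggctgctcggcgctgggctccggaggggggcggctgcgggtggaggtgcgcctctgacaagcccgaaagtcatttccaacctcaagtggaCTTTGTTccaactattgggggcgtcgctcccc
Dkk1: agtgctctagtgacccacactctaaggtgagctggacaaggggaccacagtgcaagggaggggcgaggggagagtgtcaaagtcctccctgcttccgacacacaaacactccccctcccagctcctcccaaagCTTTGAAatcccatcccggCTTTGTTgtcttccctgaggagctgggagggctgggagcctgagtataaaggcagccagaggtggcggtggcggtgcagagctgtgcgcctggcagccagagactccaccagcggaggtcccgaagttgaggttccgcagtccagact
Sfrp5: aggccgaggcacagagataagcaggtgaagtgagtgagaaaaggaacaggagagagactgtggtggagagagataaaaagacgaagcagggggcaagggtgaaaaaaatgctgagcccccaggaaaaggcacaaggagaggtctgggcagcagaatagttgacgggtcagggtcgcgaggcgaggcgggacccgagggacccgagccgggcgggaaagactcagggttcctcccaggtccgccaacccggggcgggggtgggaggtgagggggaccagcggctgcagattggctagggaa
Wls: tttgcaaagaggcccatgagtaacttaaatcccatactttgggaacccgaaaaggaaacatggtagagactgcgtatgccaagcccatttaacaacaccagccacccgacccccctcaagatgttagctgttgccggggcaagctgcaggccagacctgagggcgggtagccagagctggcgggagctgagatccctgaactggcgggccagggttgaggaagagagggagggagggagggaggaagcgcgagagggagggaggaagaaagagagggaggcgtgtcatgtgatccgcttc
Dkk1 has CTTTGAA at position -117 and CTTTGTT at position -98 from its start, and Wnt3 has CTTTGTT at position 19 after its start. The windows of Sfrp5 and Wls hold none of the words. In the annotation of the files on mm10, Wnt3 (ENSMUSG00000000125.5) lies at chr11:103774150-103817957, Dkk1 (ENSMUSG00000024868.8) at chr19:30545863-30549665, Sfrp5 (ENSMUSG00000018822.7) at chr19:42197971-42202252 and Wls (ENSMUSG00000028173.10) at chr3:159839672-159938664, so each window covers the first bases of its gene and the sequence before it. For Dkk1, this annotation starts upstream of the RefSeq start, and the marked words lie inside the gene so annotated. Of the 43 genes, 28 had a window, with 31 windows in all, and 5 of the 31 (16.1%) held a word, beside 5544 of 32851 (16.9%) windows of all genes. The median number of CG dinucleotides was 25 in these 31 windows and 7 in all windows, with 24 in Wnt3, 15 in Sfrp5, 11 in Wls and 9 in Dkk1. The share of windows with a word was thus near that of all genes, and the number of CG dinucleotides was higher.

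The summed level of each role differed in order between the cultures and across the stages. The 19 ligands summed to 25.9 ± 2.77 TPM in ESC-derived 3D EpiSCs, 56.7 ± 26.6 TPM in embryo-derived 3D EpiSCs, 30.9 ± 0.233 TPM in 2D EpiSCs and 11.1 ± 3.18 TPM in EpiLCs (SD, n = 3). The embryo-derived value rested on replicate 1 at 87.5 TPM, against a lowest value of 41.3 TPM. In the embryo, the ligands summed to 95.9 ± 5.67 TPM at E3.5, 20.6 ± 0.543 TPM at E5.5 and 111 ± 2.22 TPM at E7.5, so the level was lowest at E5.5. The 10 Frizzled receptors went the other way at the early stages, with 39.7 ± 1.28 TPM at E3.5, 51.1 ± 3.94 TPM at E4.5 and 167 ± 5.36 TPM at E5.5. They reached 358 ± 26.2 TPM in 2D EpiSCs, and 184 to 188 TPM on average in both 3D cultures. The antagonists that bind Wnt summed to 202 ± 49.9 TPM in 2D EpiSCs, 46.1 ± 12.7 TPM in ESC-derived and 69.9 ± 17.7 TPM in embryo-derived 3D EpiSCs. No sum was tested.

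**Figure D1:**
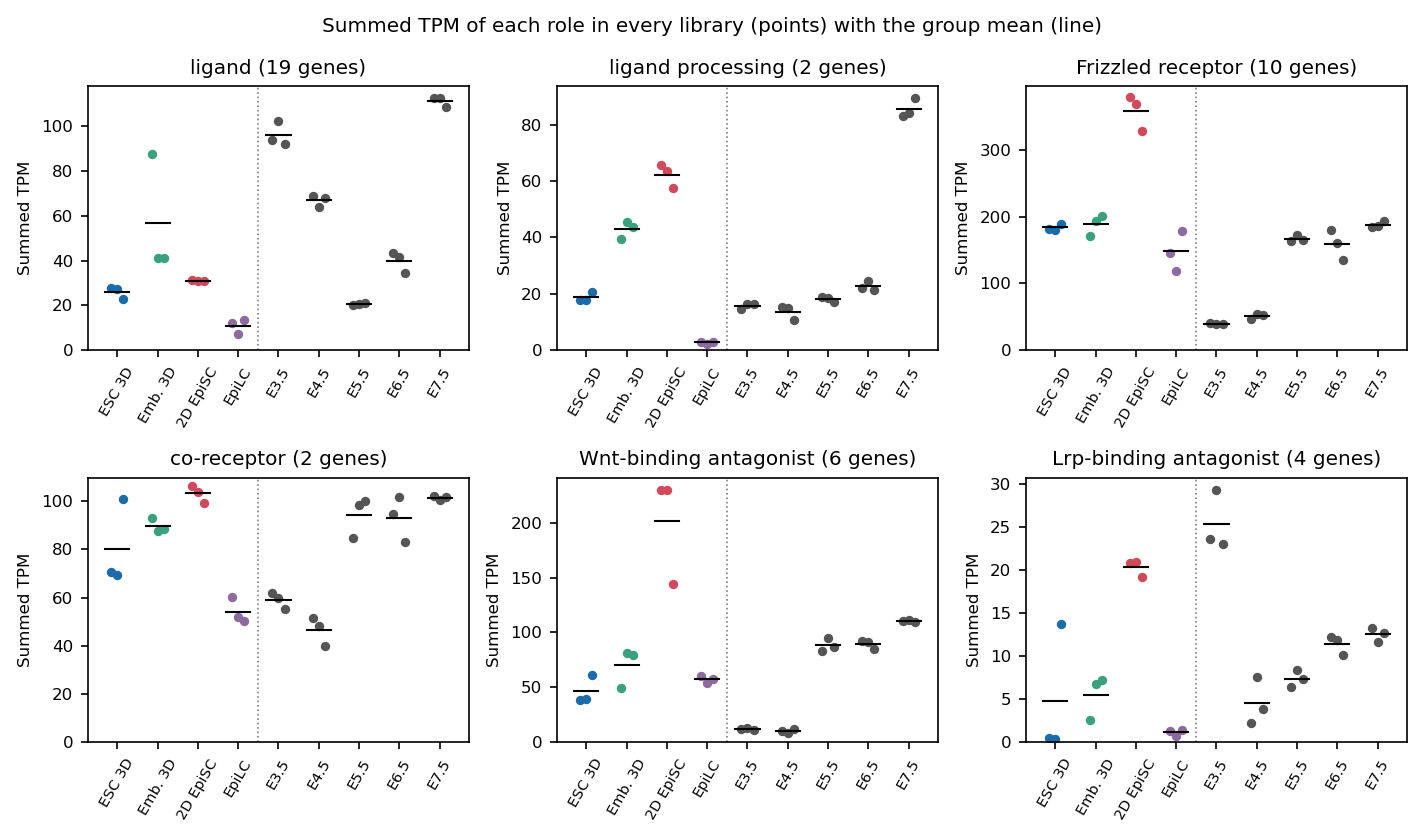
Summed TPM of the genes of each role (y axis) in every library (points), with the mean of each group (line), for the 4 cultures left of the dotted line and the 5 stages right of it. The ligands were lowest in the embryo at E5.5, at 20.01 to 21.1 TPM, and the Frizzled receptors and Wnt-binding antagonists were highest in 2D EpiSCs.

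The leading gene of a role also changed. Wnt3 made up 59.4% ± 4.02 of the ligand sum in 3D EpiSCs from ESCs and 52.7% ± 5.9 in those from embryos, against 24.6% ± 4.26 in 2D, whereas Wnt8a led in EpiLCs with 41.9% ± 8.97 (SD, n = 3). In the embryo, Wnt7b led at E3.5 and E4.5, with 64.3% ± 1.17 and 86.7% ± 5.01. Wnt3 led at E5.5 and E6.5, with 32.3% ± 4.98 and 36.9% ± 2.94, and Wnt8a at E7.5, with 44.1% ± 1.97. Fzd7 was the leading receptor in all 4 cultures and from E4.5 on, and Fzd5 at E3.5, with 62.7% ± 2.21. Among the Wnt-binding antagonists, Sfrp2 led in ESC-derived 3D EpiSCs and EpiLCs, and Sfrp1 in embryo-derived 3D EpiSCs, in 2D EpiSCs and at E3.5, E4.5, E6.5 and E7.5. At E4.5, Sfrp1 and Sfrp2 did not differ beyond their spread, with 50.7% ± 15.4 and 42.7% ± 14.8 of the sum.

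**Figure D2:**
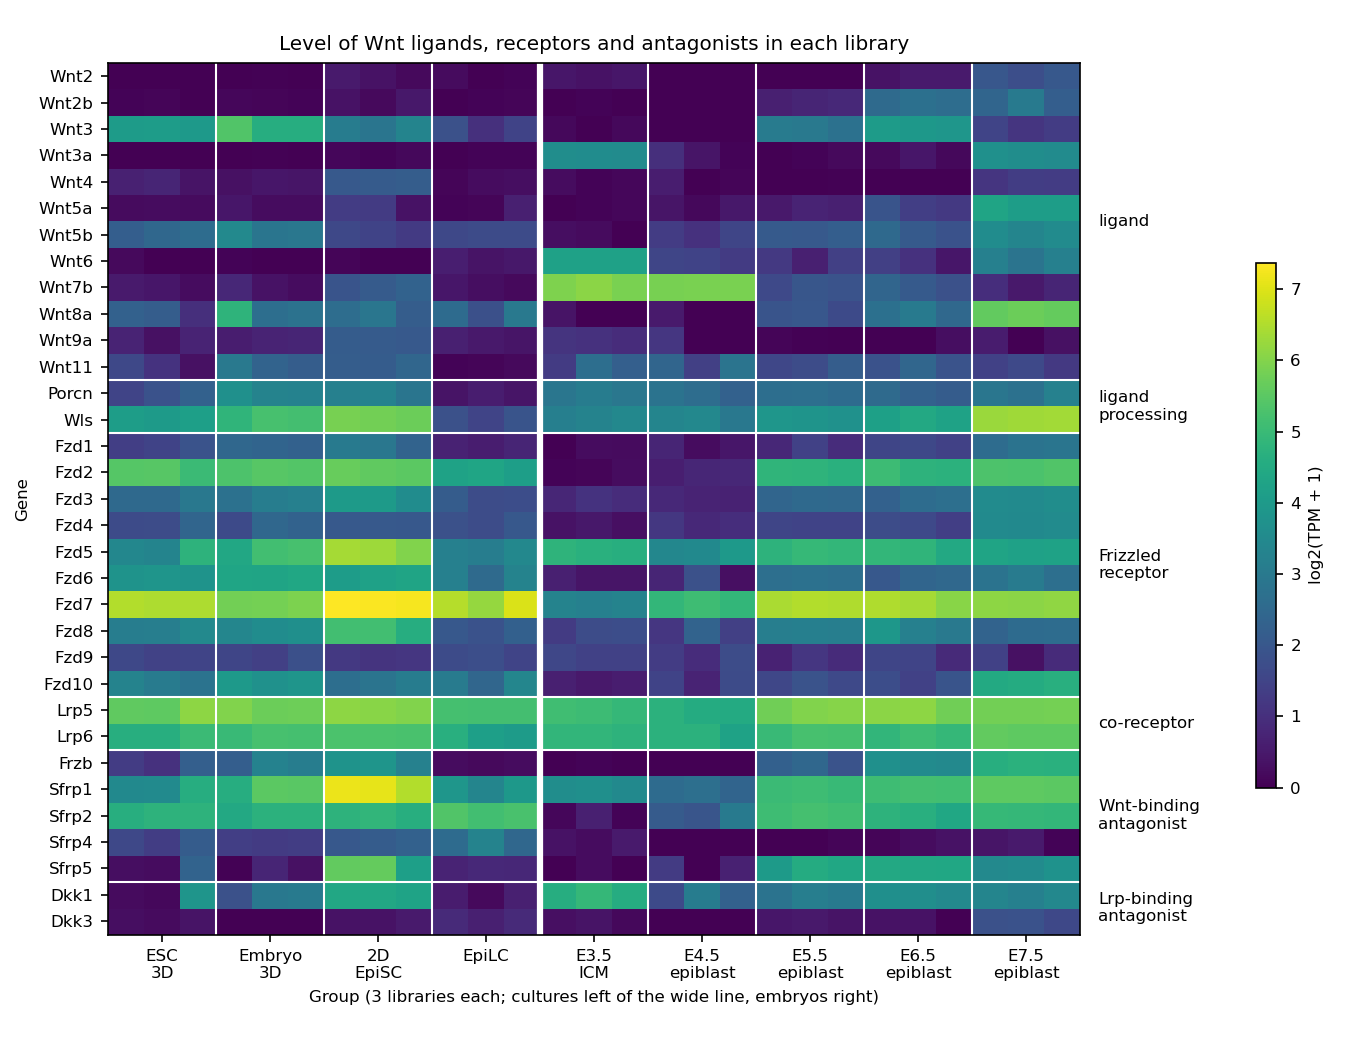
Level of the 33 genes above 2 TPM in at least 3 libraries, as log2(TPM + 1) in colour, in each of the 27 libraries (columns, 3 per group) and grouped by role (rows). Wnt7b is bright at E3.5 and E4.5 only, and Sfrp5 and Dkk1 are dark in 2 of the 3 ESC-derived 3D libraries and bright in 2D EpiSCs.

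The first comparison asks what set 3D EpiSCs apart from 2D EpiSCs. Called lower in ESC-derived 3D than in 2D EpiSCs were the antagonists Sfrp1, Sfrp5, Frzb and Dkk1, the receptors Fzd1, Fzd3, Fzd5 and Fzd8, the ligands Wnt4, Wnt7b, Wnt9a and Wnt11, and Wls. Sfrp5, Wnt4, Wnt7b and Wnt9a had passed the filter through the 2D EpiSCs, so that their difference was built in. Of the 26 tested, 13 were called lower and 0 higher, and of all 11541 genes tested 9.89% were called in either direction, 9.25% lower and 0.633% higher. The median log2 difference was -1.01 for the 26 and -0.21 for all genes. With TPM rescaled so that the median of all genes is near 0, 13 were called lower and 2 higher, the latter Wnt3 and Wnt5b, beside 6.3% and 1.15% of all genes. Leaving out the 3 libraries that stand apart, which was chosen after seeing the data, gave 12 lower and 1 higher. The share of all genes was not taken for this fit.

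The antagonists Sfrp5, Sfrp1 and Dkk1 had the largest differences from 2D in ESC-derived 3D EpiSCs. That of Sfrp5 was built in, since this gene had passed the filter through the 2D EpiSCs. Sfrp5, a secreted Frizzled-related protein, was at 0.21, 0.191 and 4.08 TPM in the 3 libraries (given throughout in the order of replicates 1, 2 and 3) of ESC-derived 3D EpiSCs, 0.0335, 0.69 and 0.27 TPM in the embryo-derived 3D EpiSCs and 47.3, 48.2 and 16.8 TPM in the 2D EpiSCs. All 6 libraries grown in 3D were below all 3 grown in 2D, and replicate 3 was the lowest 2D library. The ESC-derived 3D EpiSCs had a log2 difference of -4.17 (SE 0.52, adjusted p = 0.000128) and the embryo-derived 3D EpiSCs one of -4.74 (SE 0.52, adjusted p = 4.67e-05).

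Sfrp1, of the same family, was at 10.4, 10.4 and 23.2 TPM in ESC-derived 3D EpiSCs, 23.3, 44.6 and 43.7 TPM in embryo-derived 3D EpiSCs and 141, 137 and 91.3 TPM in 2D EpiSCs. The groups did not overlap between 3D and 2D, while replicate 3 of the former and replicate 1 of the latter 3D culture were nearly equal. Sfrp1 was lower than in 2D EpiSCs by a log2 difference of -3.06 (SE 0.33, adjusted p = 5.07e-05) in ESC-derived and one of -1.73 (SE 0.33, adjusted p = 0.00209) in embryo-derived 3D EpiSCs.

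Frzb was at 1.48, 1.07 and 3.74 TPM in ESC-derived 3D EpiSCs, 3.64, 8.73 and 7.78 TPM in embryo-derived 3D EpiSCs and 12.9, 13.3 and 8.41 TPM in 2D EpiSCs. The ESC-derived libraries lay below all 2D libraries, and the embryo-derived ones overlapped the lowest 2D library. The log2 difference of -2.09 (SE 0.32, adjusted p = 0.000503) was called in ESC-derived 3D EpiSCs, and that of -0.75 (SE 0.32, adjusted p = 0.0976) in embryo-derived 3D EpiSCs did not pass.

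Dkk1, which blocks Lrp5 and Lrp6, was at 0.163, 0.121 and 13.4 TPM in ESC-derived 3D EpiSCs, 2.54, 6.69 and 7.11 TPM in embryo-derived 3D EpiSCs and 20.5, 20.4 and 18.5 TPM in 2D EpiSCs. All 3D libraries were below the 2D libraries, and replicate 3 of the ESC-derived 3D EpiSCs was the highest of them. The log2 difference of -2.97 (SE 0.76, adjusted p = 0.00911) in ESC-derived 3D EpiSCs was called but did not pass in a fit of the compared groups alone (adjusted p = 0.052) or with the near-identical libraries averaged (adjusted p = 0.119). The embryo-derived 3D EpiSCs had -1.78 (SE 0.76, adjusted p = 0.0966), which did not pass. Without the 3 libraries that stand apart, which leaves only near-identical pairs in the EpiSC groups, the difference was -1.44 with adjusted p = 0.000121.

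The antagonists did not all differ between 3D and 2D. Sfrp2, which also binds Wnt proteins, was at 25.3 ± 1.36, 24.1 ± 2.76 and 25.9 ± 2.2 TPM in ESC-derived 3D, embryo-derived 3D and 2D EpiSCs (SD, n = 3), with log2 differences from 2D of -0.03 (SE 0.11, adjusted p = 0.836) and -0.104 (SE 0.11, adjusted p = 0.494). Sfrp4 had -0.46 (SE 0.23, adjusted p = 0.114) and -0.84 (SE 0.23, adjusted p = 0.0148), and neither passed the fold threshold. Dkk3, named for the Dkk family, stayed below 1 TPM in every culture library.

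Several markers of endoderm moved with these genes. Of the 5 tested, 4 were called lower and 0 higher in ESC-derived 3D than in 2D EpiSCs (Gata6, Gata4, Dab2 and Sox17). In embryo-derived 3D EpiSCs 2 were called lower (Gata4 and Sox17) and 1 higher (Pdgfra). The endoderm list summed to 1.95 to 15.6 TPM in ESC-derived 3D, 14.9 to 29.1 TPM in embryo-derived 3D and 53.1 to 69.0 TPM in 2D EpiSCs. Sox17 was at 0.262, 0.234 and 6.73 TPM in the ESC-derived 3D culture, 3.68, 7.21 and 10.7 TPM in the embryo-derived one and 26.1, 24.3 and 24.7 TPM in 2D. Cer1, the antagonist of Nodal and Wnt, was at 2.44, 2.36 and 119 TPM in the ESC-derived 3D culture, 56.7, 218 and 216 TPM in the embryo-derived one and 369.9, 369.6 and 309 TPM in 2D. Replicate 3 of the ESC-derived 3D EpiSCs was the highest of its group for Sox17, Cer1, Dkk1, Sfrp1, Sfrp5 and Frzb. The visceral endoderm genes Afp and Ttr were at or near 0 in these libraries. The part of endoderm cells of any kind in the differences was not tested.

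**Figure D3:**
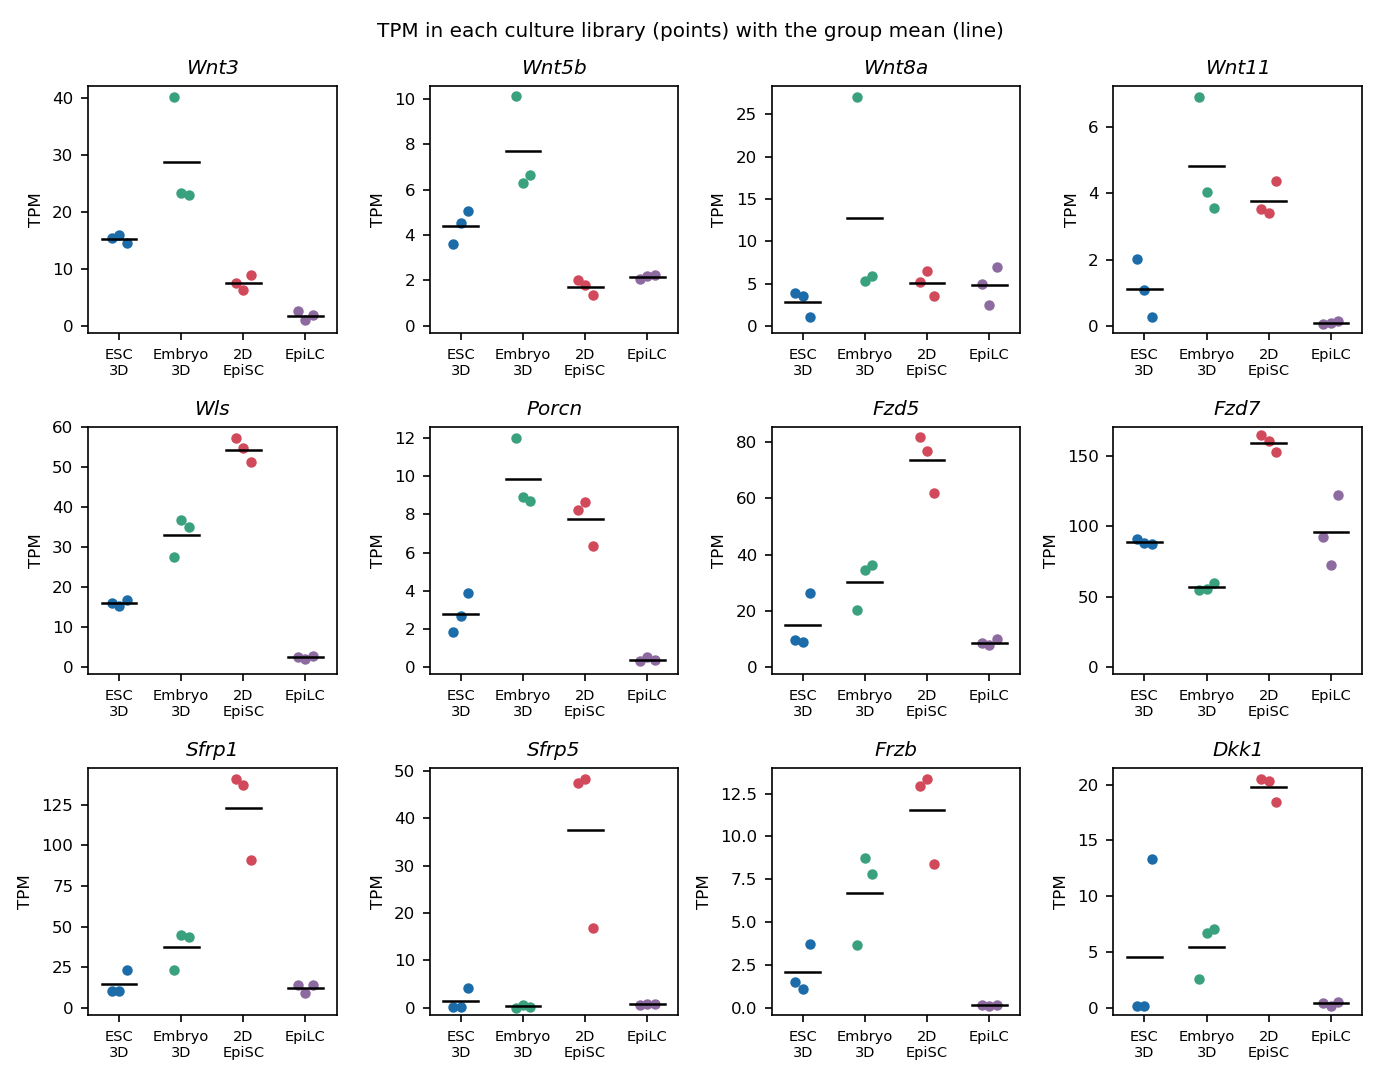
TPM (y axis, from 0) of 12 genes in each library of the 4 cultures (points), with the mean of each group (line). Wnt3 and Wnt5b were higher in every 3D library than in every 2D library, whereas Sfrp1, Sfrp5 and Dkk1 were lower in every 3D library than in every 2D library.

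Among the ligands, Wnt3 and Wnt5b stood above the 2D level in both 3D cultures and 3 low ligands below it. Wnt3 was at 15.5, 15.9 and 14.5 TPM in ESC-derived 3D EpiSCs, 40.1, 23.4 and 23 TPM in embryo-derived 3D EpiSCs and 7.49, 6.35 and 8.94 TPM in 2D EpiSCs. No libraries of the 3 groups overlapped, and replicate 1 was the highest of the embryo-derived cultures. The embryo-derived 3D EpiSCs had a log2 difference of 1.76 (SE 0.23, adjusted p = 0.00017), whereas the ESC-derived 3D EpiSCs, with 0.93 (SE 0.23, adjusted p = 0.00742), fell just short of the fold threshold and passed it in some alternatives, at 1.08 with adjusted p = 0.00391 without the 3 libraries that stand apart.

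Wnt5b, a ligand that acts mostly without β-catenin, was at 3.6, 4.55 and 5.06 TPM in the ESC-derived 3D culture, 10.1, 6.29 and 6.66 TPM in the embryo-derived one and 2.02, 1.79 and 1.36 TPM in 2D, again without overlap. Its log2 differences from 2D were 0.98 (SE 0.16, adjusted p = 0.000815) and 1.66 (SE 0.16, adjusted p = 2.16e-05), and the second was called. Wnt8a, which varied widely, was at 3.88, 3.5 and 0.985 TPM in the ESC-derived 3D culture, 27.1, 5.32 and 5.86 TPM in the embryo-derived one and 5.2, 6.51 and 3.54 TPM in 2D. Its differences of -0.76 (SE 0.54, adjusted p = 0.267) and 0.84 (SE 0.54, adjusted p = 0.258) did not pass. Replicate 1 of the embryo-derived 3D EpiSCs was the highest culture library for Wnt3, Wnt5b, Wnt8a and Wnt11, as it was for T and Eomes.

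Wnt11 was at 2, 1.1 and 0.269 TPM in the ESC-derived 3D culture, 6.9, 4.05 and 3.55 TPM in the embryo-derived one and 3.52, 3.4 and 4.37 TPM in 2D. The ESC-derived libraries lay below all others, and the embryo-derived and 2D libraries overlapped. The ESC-derived 3D EpiSCs had a log2 difference of -1.25 (SE 0.27, adjusted p = 0.00398) from 2D, which fell below the fold threshold without their replicate 3 (-0.92, adjusted p = 0.00489), and the embryo-derived 3D EpiSCs had 0.25 (SE 0.27, adjusted p = 0.506). Wnt4, Wnt7b and Wnt9a reached 2 TPM in 2D EpiSCs alone, at 3.32 ± 0.182, 3.37 ± 0.583 and 3.33 ± 0.121 TPM (SD, n = 3), and no 3D library was above 0.760 TPM. Their log2 differences from 2D were -1.499 (SE 0.11, adjusted p = 3.6e-06), -1.72 (SE 0.16, adjusted p = 1.86e-05) and -1.51 (SE 0.12, adjusted p = 6.77e-06) in ESC-derived and -1.71 (SE 0.11, adjusted p = 6.72e-07), -1.65 (SE 0.16, adjusted p = 1.64e-05) and -1.41 (SE 0.12, adjusted p = 5.78e-06) in embryo-derived 3D EpiSCs.

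Both genes that process ligands were lower in ESC-derived 3D EpiSCs than in 2D EpiSCs. Wls was at 16.1, 15.3 and 16.8 TPM in ESC-derived 3D EpiSCs, 27.5, 36.7 and 34.9 TPM in embryo-derived 3D EpiSCs and 57.3, 54.7 and 51.2 TPM in 2D EpiSCs, with no overlap. The log2 difference of -1.699 (SE 0.13, adjusted p = 5.28e-06) was called and that of -0.71 (SE 0.13, adjusted p = 0.00148) was below the fold threshold. Porcn, from the fit with all chromosomes, was at 1.84, 2.65 and 3.86 TPM in the ESC-derived 3D culture, 12, 8.9 and 8.73 TPM in the embryo-derived one and 8.26, 8.68 and 6.32 TPM in 2D. Its differences were -1.24 (SE 0.19, adjusted p = 0.000473), called, and 0.31 (SE 0.19, adjusted p = 0.232), not called.

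Of the receptors, Fzd5 and Fzd8 were lower in both 3D cultures. Fzd5 was at 9.67, 8.98 and 26.3 TPM in ESC-derived 3D EpiSCs, 20.4, 34.5 and 36.2 TPM in embryo-derived 3D EpiSCs and 81.8, 77 and 62.1 TPM in 2D EpiSCs, so that all 3D libraries were below the 2D libraries. It had a log2 difference of -2.38 (SE 0.34, adjusted p = 0.000292) in ESC-derived and one of -1.28 (SE 0.34, adjusted p = 0.0127) in embryo-derived 3D EpiSCs, and the latter did not pass with the near-identical libraries averaged (adjusted p = 0.0633). Fzd8 was at 8.57 ± 1.37, 10.8 ± 1.15 and 30.5 ± 6.22 TPM (SD, n = 3), with differences of -1.71 (SE 0.17, adjusted p = 2.85e-05) and -1.41 (SE 0.17, adjusted p = 8.38e-05).

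Fzd7, the most abundant receptor, was at 90.6, 88.2 and 87.1 TPM in ESC-derived 3D EpiSCs, 54.5, 55.6 and 59.7 TPM in embryo-derived 3D EpiSCs and 165, 160.5 and 152 TPM in 2D EpiSCs, without overlap. It was called lower in embryo-derived 3D EpiSCs, at -1.48 (SE 0.15, adjusted p = 2.47e-05), and had -0.84 (SE 0.15, adjusted p = 0.00122) in ESC-derived 3D EpiSCs. Fzd1 and Fzd3 were the other receptors called lower in ESC-derived 3D EpiSCs, at -1.18 and -1.21, with -0.39 (SE 0.17, adjusted p = 0.111) and -0.85 (SE 0.18, adjusted p = 0.00419) in embryo-derived 3D EpiSCs. Fzd10 had 0.98 (SE 0.21, adjusted p = 0.00507) in the latter and fell short of the fold threshold. Fzd2, Fzd4, Fzd6 and Fzd9 and the co-receptors Lrp5 and Lrp6 did not pass in either culture, and their differences lay between -0.51 and 0.41.

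The embryo-derived 3D EpiSCs were compared with the same 2D libraries, so that the values of the 2 cultures are not independent. Origin and mouse background changed here as well. In this comparison 2 of the 26 genes were called higher, Wnt3 and Wnt5b, and 8 lower, beside 1.07% and 7.75% of all genes (8.82% in either direction). Among the 8, Sfrp5, Wnt4, Wnt7b and Wnt9a had passed the filter through the 2D EpiSCs, so that their difference was built in. With the 3 libraries that stand apart left out, 3 were called higher and 9 lower, with Fzd10 and Dkk1 added. For this fit, too, the share of all genes was not taken.

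**Figure D4:**
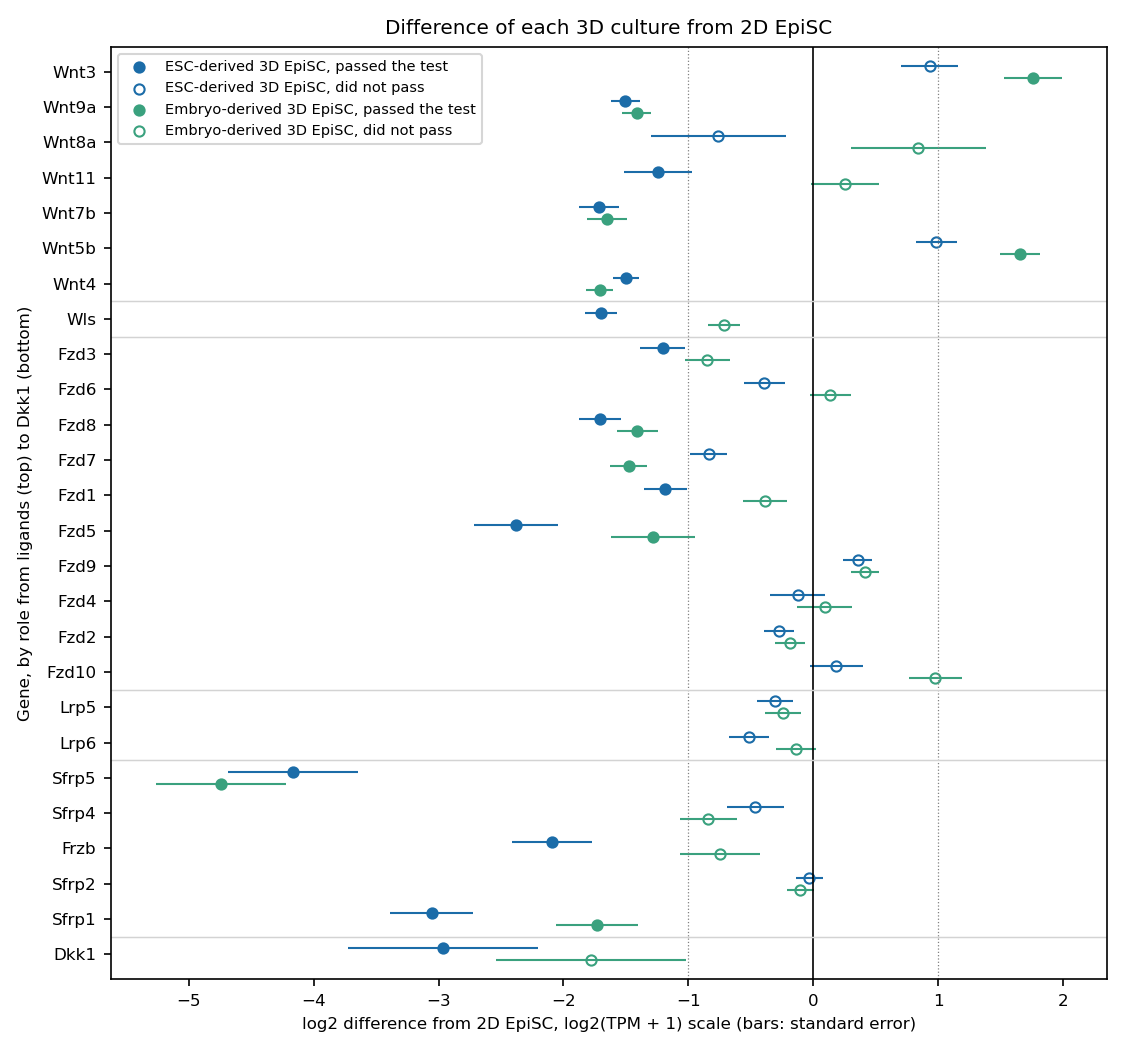
Log2 difference (x axis) of each of the 26 tested genes in ESC-derived (blue) and embryo-derived (green) 3D EpiSCs from 2D EpiSCs, with standard errors as bars and filled points where the test was passed. Sfrp5, which had passed the filter through the 2D EpiSCs, has the lowest values, at -4.17 and -4.74. Wnt3 and Wnt5b lie on the right in both cultures.

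Further genes of the pathway were counted from lists of membrane and extracellular partners (24 genes), intracellular components (15) and targets (13). Of the membrane partners, 16 could be tested, and 7 were called lower and 0 higher in ESC-derived 3D than in 2D EpiSCs, among them Lgr5, an R-spondin receptor, at -1.64 (SE 0.28, adjusted p = 0.000996) and Ror2, a Wnt5a receptor, at -1.63 (SE 0.23, adjusted p = 0.00031). In embryo-derived 3D EpiSCs 2 were called lower, Vangl1 and Rnf43. Of 10 targets tested, 1 was called lower in the first, Sp5 at -1.12 (SE 0.17, adjusted p = 0.000462), and 1 higher in the second, Lef1 at 1.39 (SE 0.11, adjusted p = 3.28e-06). Axin2, a direct target and feedback inhibitor, was at 8.95, 8.47 and 7.02 TPM in ESC-derived 3D, 19.3, 10.7 and 9.82 TPM in embryo-derived 3D and 7.09, 6.49 and 7.11 TPM in 2D EpiSCs and was called in neither. Of the 15 intracellular genes, 3 were called lower in ESC-derived 3D EpiSCs (Apc, Tcf7l2 and Tnks), and in embryo-derived 3D EpiSCs Tcf7l2 was called lower and Lef1 higher.

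The next comparison sets the 2D EpiSCs, as the primed state, against EpiLCs, as the formative state. Of the 26 genes, 16 were called higher in 2D EpiSCs and 0 lower, beside 15.2% and 5.14% of all genes (20.4% in either direction). Among the 16, Sfrp5, Wnt4, Wnt7b and Wnt9a had passed the filter through the 2D EpiSCs, so that their difference was built in. The 16 covered all roles but the co-receptors, with 5 ligands, 6 receptors, 4 antagonists and Wls. Wls was at 2.55, 1.87 and 2.76 TPM in the EpiLCs, against at least 51.2 TPM in 2D EpiSCs, a log2 difference of 4.04 (SE 0.13, adjusted p = 8.1e-10). Sfrp5 was at 0.651, 0.814 and 0.75 TPM in EpiLCs, with 4.33 (SE 0.52, adjusted p = 2.81e-05), and Dkk1 at 0.466, 0.15 and 0.553 TPM, with 3.91 (SE 0.76, adjusted p = 0.000984). Frzb was below 0.2 TPM in every EpiLC library and had 3.41 (SE 0.32, adjusted p = 4.33e-06).

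Sfrp1 in 2D EpiSCs was above EpiLCs by 3.21 (SE 0.33, adjusted p = 8.23e-06), with 13.8, 9.17 and 14.3 TPM in EpiLCs. Of the receptors, Fzd5 had 2.95 (SE 0.34, adjusted p = 1.84e-05), Fzd8 2.91 (SE 0.17, adjusted p = 8.07e-08), Fzd1 2.07 (SE 0.17, adjusted p = 1.69e-06) and Fzd3 2.01 (SE 0.18, adjusted p = 2.83e-06). Of the ligands, Wnt11 had 2.12 (SE 0.27, adjusted p = 4.82e-05), from 0.0594, 0.0777 and 0.144 TPM in EpiLCs. The remaining 6 called genes were Wnt3, Wnt4, Wnt7b, Wnt9a, Fzd2 and Fzd6, at 1.18 to 1.91, and Fzd6 fell to 0.94 without EpiLC replicate 2. Porcn, in the fit with all chromosomes, had 2.66 (SE 0.19, adjusted p = 4.07e-07), from 0.317, 0.494 and 0.333 TPM in EpiLCs. Markers of other cell types were also higher in 2D EpiSCs. Of the 5 endoderm markers tested, 3 were called higher and 0 lower (Sox17 at 4.43, Gata6 at 4.22 and Gata4 at 2.68), as were all 3 mesoderm markers tested (T at 3.99, Eomes at 3.26 and Mixl1 at 1.86), all 4 trophectoderm markers tested and both fibroblast markers tested. The part of these cells in the 16 calls was not tested. Of the 16 membrane partners tested, 8 were called higher and 0 lower in 2D EpiSCs, of 15 intracellular genes 3 higher and 1 lower, and of 10 targets 2 higher and 1 lower. Of all genes, 15.2% were called higher and 5.14% lower. Sfrp2 and Fzd7, by contrast, were high in EpiLCs too, at 37.4 ± 2.87 and 95.5 ± 25 TPM (SD, n = 3).

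Both 3D cultures were also set against the same EpiLC libraries. ESC-derived 3D EpiSCs had 5 of the 26 genes called higher and 1 lower, beside 5.33% and 7.11% of all genes (12.4% in either direction). The higher ones were Wnt3, at 2.58 (SE 0.23, adjusted p = 4.17e-06), Wls, at 2.34 (SE 0.13, adjusted p = 6.67e-08), Frzb, at 1.32 (SE 0.32, adjusted p = 0.00604), Fzd8, at 1.198 (SE 0.17, adjusted p = 0.00015), and Fzd2, at 1.07 (SE 0.12, adjusted p = 2.72e-05). The lower was Sfrp4, at -1.07 (SE 0.23, adjusted p = 0.00257), from 4.92, 8.85 and 4.52 TPM in EpiLCs. Frzb fell below the fold threshold without replicate 3 of the ESC-derived 3D EpiSCs (0.96), Fzd2 without their replicate 2 (0.99), and Sfrp4 without their replicate 2 (-0.90) or EpiLC replicate 2 (-0.81).

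Embryo-derived 3D EpiSCs had 13 genes called higher than in EpiLCs and 1 lower, beside 10.5% and 8.28% of all genes (18.8% in either direction). The largest were Wnt3, at 3.41 (SE 0.23, adjusted p = 2.6e-07), Wls, at 3.33 (SE 0.13, adjusted p = 2.4e-09), Frzb, at 2.66 (SE 0.32, adjusted p = 3.23e-05), and Wnt11, at 2.37 (SE 0.27, adjusted p = 2.15e-05). Dkk1 had 2.13 (SE 0.76, adjusted p = 0.0321) and did not pass without replicate 2 or 3 of the embryo-derived 3D EpiSCs or without any EpiLC replicate, with log2 differences of 1.92 to 2.22. Then came the receptors Fzd1, at 1.68 (SE 0.17, adjusted p = 9.1e-06), Fzd5, at 1.67 (SE 0.34, adjusted p = 0.00133), and Fzd8, at 1.5 (SE 0.17, adjusted p = 1.69e-05). Sfrp1 had 1.48 (SE 0.33, adjusted p = 0.00257), and Sfrp4 was the lower gene, at -1.45 (SE 0.23, adjusted p = 0.000223). The remaining 4 were Wnt5b, Fzd2, Fzd3 and Fzd6, at 1.15 to 1.43.

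Markers of other cell types moved in these comparisons too. The 3 mesoderm markers tested were called higher than in EpiLCs in both 3D cultures, with T at 3.04 and Eomes at 2.75 in the ESC-derived and T at 3.89 and Eomes at 3.81 in the embryo-derived one. Of the 5 endoderm markers tested, 3 were called higher in the embryo-derived culture (Gata6 at 2.88, Sox17 at 2.66 and Pdgfra at 1.87) and 1 lower (Dab2), and in the ESC-derived culture 0 were called higher and 1 lower (Dab2). Of the 4 trophectoderm markers tested, Krt7 was called higher in both. Their part in the calls was not tested.

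The 3D cultures of the 2 origins were compared directly. Of the 26 genes, 0 were called higher and 4 lower where the culture came from ESCs, beside 1.98% and 1.98% of all genes (3.96% in either direction). They were Wnt11, at -1.501 (SE 0.27, adjusted p = 0.00386), Frzb, at -1.34 (SE 0.32, adjusted p = 0.0152), Sfrp1, at -1.32 (SE 0.33, adjusted p = 0.018), and Fzd5, at -1.09 (SE 0.34, adjusted p = 0.0401). Without replicate 1 or 2 of the ESC-derived, or replicate 2 or 3 of the embryo-derived 3D EpiSCs, Wnt11 was the 1 gene called, as it was with the near-identical libraries averaged. Without the 3 libraries that stand apart, Frzb, Sfrp1, Fzd5, Dkk1 and Wls were called lower, and Dkk1 then had -2.79 with adjusted p = 7.7e-06 while Wnt11 had -0.93. Each of these 3D cultures then holds only its near-identical pair. Porcn had -1.55 (SE 0.19, adjusted p = 0.000278) in the fit with all chromosomes. This gene is X-linked and the study did not sex the source embryos, so a part of sex was not tested. Wnt3, at -0.83 (SE 0.23, adjusted p = 0.0284), and Wls, at -0.99 (SE 0.13, adjusted p = 0.000436), did not pass the fold threshold, although the libraries did not overlap. Of 16 membrane partners, 4 were called lower and 0 higher in the ESC-derived culture, including Rspo3, an R-spondin that raises Wnt receptor levels, at -1.75 (SE 0.21, adjusted p = 0.000248).

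In the embryo, the question is which of these genes change as the ICM becomes the epiblast and the epiblast enters gastrulation. Neighbouring stages were compared, each sharing libraries with the next, and the embryos of E3.5 and E4.5 were fragmented differently in library preparation from the later ones, which cannot be told apart from the change between E4.5 and E5.5.

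From E3.5 to E4.5, 3 of the 28 genes tested rose and 5 fell, beside 5.88% and 11.9% of all genes (17.8% in either direction). With rescaled TPM, 3 rose and 3 fell, beside 6.95% and 10.3% of all genes, Sfrp1 and Fzd5 dropping below the fold threshold. Wnt3a, a ligand of the β-catenin branch, was at 11.2, 10.9 and 10.9 TPM in the 3 E3.5 libraries and 1, 0.324 and 0.0555 TPM at E4.5, a log2 difference of -3.09 (SE 0.17, adjusted p = 5.37e-09). Wnt6 was at 17.7, 17.6 and 17.6 TPM at E3.5 and 1.91, 1.77 and 1.45 TPM at E4.5, with -2.79 (SE 0.22, adjusted p = 1.86e-07). For both genes every E4.5 library was below every E3.5 library.

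Dkk1 was at 23.3, 28.9 and 22.9 TPM at E3.5 and 2.14, 7.56 and 3.85 TPM at E4.5, with -2.35 (SE 0.26, adjusted p = 4.27e-06). Sfrp1 had -1.04 (SE 0.09, adjusted p = 3.86e-07), and Fzd5 had -1.06 (SE 0.15, adjusted p = 3.72e-05). Sfrp1 was at -0.95 without E4.5 replicate 3, and Fzd5 at -0.95 and -0.99 without E4.5 replicate 1 or 2, below the fold threshold. The genes that rose were Sfrp2, from 0.0862, 0.568 and 0.0442 to 3.35, 2.84 and 7.09 TPM, at 2.08 (SE 0.23, adjusted p = 4.28e-06), Fzd7, at 1.68 (SE 0.11, adjusted p = 1.76e-08), and Wnt5b, at 1.14 (SE 0.16, adjusted p = 3.88e-05). The endoderm markers summed to 728 to 757 TPM at E3.5 and 308 to 350 TPM at E4.5, and Gata6 was at 122, 119 and 112 TPM and then 9.48, 8.84 and 7.6 TPM. These markers moved with Dkk1 and Sfrp1, and their part was not tested.

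Wnt7b was the most abundant ligand at both stages, at 60.7, 66.8 and 57.8 TPM at E3.5 and 57, 58.9 and 57.9 TPM at E4.5. At E5.5 it was at 2.06, 2.93 and 2.72 TPM, a log2 difference of -4.05 (SE 0.15, adjusted p = 4.9e-11), and it was the only one of the 28 genes called lower at this step. Elf5, a trophoblast gene, was at 48.1, 47.3 and 53.7 TPM at E3.5, 124, 126 and 130.0 TPM at E4.5 and 5.06, 2.86 and 3.88 TPM at E5.5. The trophectoderm list as a whole fell from 412 to 428 TPM at E4.5 to 14.3 to 17.3 TPM at E5.5, and its part in the Wnt7b values was not tested.

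From E4.5 to E5.5, 13 genes rose and 1 fell, beside 14.9% and 9.47% of all genes (24.4% in either direction). They included 6 of 9 Frizzled receptors tested and all 4 Wnt-binding antagonists tested, 2 of 10 ligands and 1 of 2 co-receptors, and 0 of the 2 Dkk genes tested. Fzd2 was at 0.546, 0.737 and 0.77 TPM at E4.5 and 27.2, 26.9 and 24.5 TPM at E5.5, a log2 difference of 4.02 (SE 0.099, adjusted p = 1.07e-12), and Fzd7 went from 28.5, 33.2 and 28.4 TPM to 86.4, 90.8 and 88.6 TPM, with 1.53 (SE 0.11, adjusted p = 3.13e-08). Fzd3 had 1.72 (SE 0.105, adjusted p = 8e-09) and Fzd6 1.75 (SE 0.28, adjusted p = 0.000111). Lrp5 rose as well, from 25.6, 22.4 and 21.8 to 54.2, 61.9 and 64.7 TPM, at 1.34.

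Of the antagonists, Sfrp5 was at 1.46, 0 and 0.596 TPM at E4.5 and 15.1, 22.2 and 20.1 TPM at E5.5, with 3.66 (SE 0.24, adjusted p = 1.82e-08). Sfrp2 reached 32.8, 35.6 and 33.4 TPM, with 2.77 (SE 0.23, adjusted p = 1.77e-07), Sfrp1 31.7, 32.6 and 30.5 TPM, with 2.48 (SE 0.09, adjusted p = 3.58e-11), and Frzb 3.76, 4.54 and 2.71 TPM. Frzb was listed at 0 in all 3 E4.5 libraries, so no fold is given, and it was called (adjusted p = 2.26e-09). For each of these genes all E5.5 libraries were above all E4.5 libraries. The endoderm list rose from 308 to 350 TPM to 870 to 931 TPM at this step, with Afp listed at 0 in all E4.5 libraries and at 75.5, 83.1 and 84.2 TPM at E5.5, and its part in the rise of the antagonists was not tested.

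Wnt3 was listed at 0 in all 3 E4.5 libraries and was at 7.34, 6.9 and 5.67 TPM at E5.5. It was called (adjusted p = 6.17e-11), and no fold is given against a stage listed at 0. Wnt8a was at 0.448, 0 and 0 TPM at E4.5 and 2.78, 3.01 and 2.13 TPM at E5.5 and rose, at 1.68 (SE 0.17, adjusted p = 1.55e-06). Fzd5 and Fzd8 also rose, at 1.23 and 1.53. Dkk1, at 5.95, 7.87 and 7.04 TPM at E5.5, overlapped its E4.5 range and, at 0.64 (SE 0.26, adjusted p = 0.0441), was below the fold threshold. Of the 16 membrane partners, 7 rose and 2 fell at this step, of 15 intracellular genes 3 rose and 0 fell, and of 13 targets 7 rose and 3 fell. Of all genes, 14.9% rose and 9.47% fell.

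From E5.5 to E6.5, as the streak forms, 3 genes rose and 0 fell, beside 0.715% and 0.48% of all genes (1.2% in either direction). Wnt3 reached 15.7, 14.2 and 13.8 TPM, a log2 difference of 1.03 (SE 0.11, adjusted p = 8.78e-05), which dropped below the fold threshold without E5.5 replicate 3 (0.94) or E6.5 replicate 1 (0.98). Wnt2b, at 0.579, 0.689 and 0.794 TPM before, reached 4.85, 5.6 and 5.26 TPM, with 1.89 (SE 0.15, adjusted p = 6.11e-06). Frzb reached 12, 10.8 and 10.2 TPM, with 1.38 (SE 0.12, adjusted p = 9.98e-06). Libraries of the stages did not overlap for these 3 called genes, and the share of all genes without overlap was not taken. Sp5, a direct Wnt target, rose with them from 6.41, 7.11 and 6.46 to 37.2, 30.1 and 23 TPM, and T from 4.71, 4.42 and 5.93 to 31, 28.1 and 30.3 TPM, the 2 called of 13 targets tested. Of the 6 nascent mesoderm markers, 4 were called higher and 0 lower (Mixl1, Mesp1, Eomes and T). Their list summed to 90.9 to 97.4 TPM at E5.5 and 273 to 340 TPM at E6.5. The endoderm list, with 0 of 10 genes called, summed to 870 to 931 TPM and then 1363 to 1374 TPM. The part of these tissues in the 3 calls was not tested.

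**Figure D5:**
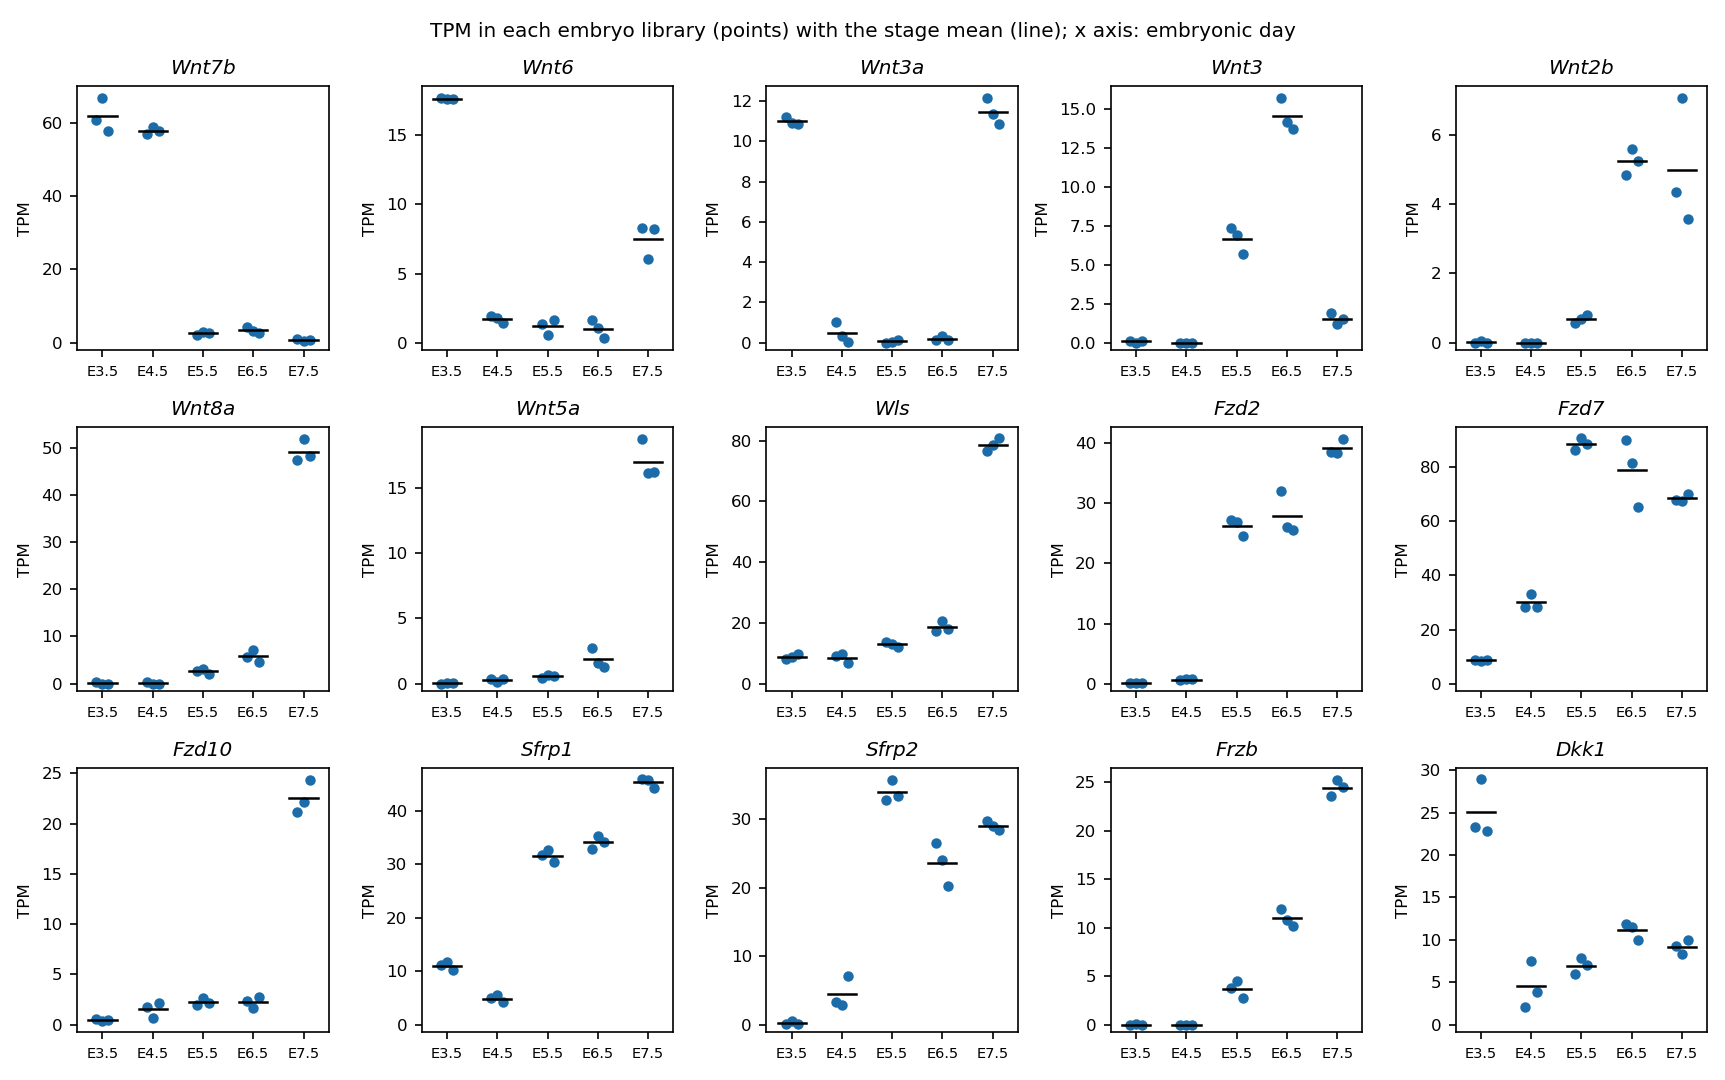
TPM (y axis, from 0) of 15 genes in each embryo library (points) against embryonic day (x axis), with the mean of each stage (line). Wnt7b is high at E3.5 and E4.5, Wnt3 peaks at E6.5, Wnt3a is high at E3.5 and E7.5, and Wnt8a, Wnt5a, Wls and Fzd10 are high at E7.5.

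From E6.5 to E7.5, 6 ligands rose and 2 fell, with Wls, Fzd10 and Fzd4 among the other genes that rose. Of the 28 genes, 13 rose and 2 fell, beside 10.6% and 1.94% of all genes (12.6% in either direction), whose median difference was 0.31. With TPM rescaled so that this median is near 0, 10 rose and 4 fell, beside 6.2% and 3.22% of all genes, with Fzd1, Fzd3 and Frzb no longer called and Fzd8 and Sfrp5 called lower. Among the 13 genes that rose, Wnt2, Wnt5a, Dkk3, Fzd1 and Fzd4 had passed the filter through E7.5, which favoured a rise in them. Wnt3 dropped to 1.88, 1.19 and 1.49 TPM, a log2 difference of -2.63 (SE 0.11, adjusted p = 6.08e-10). Wnt3a was at 0.132, 0.358 and 0.118 TPM at E6.5 and 12.1, 11.4 and 10.8 TPM at E7.5, with 3.38 (SE 0.17, adjusted p = 4.1e-09).

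Wnt8a rose to 47.4, 51.8 and 48.1 TPM, with 2.905 (SE 0.17, adjusted p = 1.73e-08), and was then the most abundant ligand. Wnt5a, which signals through Ror2, went from 2.74, 1.56 and 1.32 to 18.7, 16.1 and 16.2 TPM, with 2.68 (SE 0.15, adjusted p = 1.06e-08). Wnt6 went from 1.64, 1.05 and 0.362 to 8.29, 6.08 and 8.19 TPM, with 2.12 (SE 0.22, adjusted p = 5.1e-06). For these ligands no E7.5 library overlapped E6.5. Wnt2, Wnt5b and Wnt7b were the other ligands called, at 1.46 (SE 0.08, adjusted p = 7.61e-09), 1.35 and -1.37.

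Wls, the carrier of the ligands, rose with them from 17.2, 20.7 and 17.9 to 76.6, 78.5 and 80.8 TPM, with 2.02 (SE 0.12, adjusted p = 1.78e-08), whereas Porcn, at 6.43, 5.74 and 8.54 TPM, had 0.64 (SE 0.15, adjusted p = 0.00346) and did not pass. Fzd10 rose from 2.35, 1.66 and 2.79 to 21.1, 22.2 and 24.3 TPM, with 2.86 (SE 0.2, adjusted p = 9.13e-08), and Fzd4 from 2.25, 2.1 and 1.6 to 10.5, 10.3 and 10.8 TPM, with 1.95 (SE 0.103, adjusted p = 5.51e-09). Dkk3 reached 2.53, 2.59 and 2.02 TPM, with 1.52 (SE 0.11, adjusted p = 1.08e-07). The remaining called genes, Frzb, Fzd1 and Fzd3, were at 1.04 to 1.23, and Fzd3 was at 0.92 without E6.5 replicate 1. Fzd7 remained the most abundant receptor, at 68.6 ± 1.39 TPM (SD, n = 3).

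Other genes of the pathway moved at the same step, at which 10.6% of all genes were called higher and 1.94% lower. The counts of these lists were not taken with rescaled TPM. Of 16 membrane partners tested, 9 were called higher and 0 lower at E7.5, including Ror2, from 9.2, 12.9 and 5.71 to 47.7, 49.6 and 45.1 TPM, and Rspo3, from 5.21, 7.01 and 3.51 to 28.3, 23.9 and 25.7 TPM. Of 13 targets, 7 were called higher and 0 lower, including Axin2, at 1.41 (SE 0.08, adjusted p = 1.45e-08), with 86.3, 89.6 and 87.7 TPM at E7.5. Of the 6 nascent mesoderm markers, 3 rose (Tbx6, Msgn1 and T) and 3 fell (Mixl1, Mesp1 and Eomes), and their sum was 273 to 340 TPM at E6.5 and 215 to 227 TPM at E7.5. The neural list was at 13.7 to 17.4 TPM at E7.5 against 1.09 to 1.33 TPM. The epiblast list was at 819 to 863 TPM, against 2611 to 3030 TPM at E6.5. The trophectoderm and extra-embryonic ectoderm list was at 98.0 to 110 TPM, against 26.7 to 32.7 TPM at E6.5. From this list, Gata3 and Hand1 were called higher and Elf5 lower. The part of these tissues in the change of the ligands was not tested.

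Set beside the embryo, the cultures carried a part of these ligands. Wnt3 was at 6.35 to 8.94 TPM in 2D EpiSCs and 14.5 to 40.1 TPM in both 3D cultures, beside 13.8 to 15.7 TPM at E6.5. Wnt2b, at 4.85 to 5.597 TPM at E6.5, was at most 0.395 TPM in any culture library. Wnt3a, Wnt6 and Wnt2 were at most 0.535 TPM in every culture library, though each exceeded 2 TPM in embryos. Sfrp5 was at 16.8 to 48.2 TPM in 2D EpiSCs and 20.2 to 21.0 TPM at E6.5, and at most 4.08 TPM in 3D. Frzb was at 10.2 to 11.96 TPM at E6.5, at 8.41 to 13.3 TPM in 2D EpiSCs and at 1.07 to 8.73 TPM in both 3D cultures. Fzd6, conversely, was at 12.7 to 20.01 TPM in all EpiSC libraries and at most 7.42 TPM in any embryo library. These levels come from 2 kinds of library and were not tested.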

How the data were processed

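RNA-seq was analysed in 27 of the 35 samples of the series, 12 from cultures and 15 from embryos. Before deposit, the authors removed adapters (cutadapt 2.4), mapped to mm10 (STAR) and estimated expression with StringTie on GENCODE annotation, and the values they deposited are TPM, which hold no read counts, so the exact depth of each library cannot be read from them and no count model was used. Embryo libraries of E3.5 and E4.5 were fragmented differently. Empty cells on 56 lines were read as 0, and 12 gene IDs on several lines were summed. Autosomal protein-coding genes above 2 TPM in at least 3 libraries of a fit were tested on log2(TPM + 1) with limma 3.58.1 in R 4.3.3, with 1 fit for the cultures (11541 genes) and 1 for the embryos (11880 genes), and p-values were adjusted by Benjamini-Hochberg over all genes of a comparison. Promoters are from RefSeq. The code was tested on simulated data. Every gene of the name rule was reported, with full values for the largest called differences of each comparison (up to 10) and for others where groups are set side by side. The genes, marker lists and pathway lists were chosen with earlier results of these data known. Alternatives changed the pseudocount, filter, scaling, chromosomes, libraries, variance model and replicate numbers. Single-cell and methylation samples were not analysed here.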

Additional observations from a re-analysis of the deposited data

Results flagged for a closer look

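For 4 genes the difference of 3D from 2D EpiSCs passed the test of a dependence on the origin of the 3D culture, that is the test of ESC-derived against embryo-derived 3D EpiSCs, in which the shared 2D libraries cancel. The log2 difference between the origins was -1.5 for Wnt11, -1.34 for Frzb, -1.32 for Sfrp1 and -1.09 for Fzd5 (limma, adjusted p = 0.00386, 0.0152, 0.018 and 0.0401). In all 4 the ESC-derived culture was the lower one, and its replicate 3 was its highest library for Frzb, Sfrp1 and Fzd5 and its lowest for Wnt11. Of 15 alternatives, Wnt11 kept the call in 14, Frzb and Sfrp1 in 8 and Fzd5 in 7. Frzb, Sfrp1 and Fzd5 lost it in 4 of 6 fits that leave out a library (without replicate 1 or 2 of the ESC-derived or 2 or 3 of the embryo-derived culture), with log2 differences over the 15 of -2.03 to -0.998, -1.98 to -0.993 and -1.82 to -0.731. Wnt11 had -0.93 without the 3 libraries that stand apart. The part of origin, mouse background and single libraries was not tested.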

How the results depend on the processing

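No direction of a called gene reversed under any alternative run. Of the tests of single genes under alternatives, 3685 kept their side of the thresholds, 56 passed only under the alternative and 55 only as reported. Of the group means and ligand sums under rescaled TPM, 291 moved by less than the replicate SD. The other 105 include means of genes at 0 TPM in all 3 libraries of a group, which did not move. Between the 2 origins of 3D EpiSCs, the count of 4 fell to 1 with no filter on low values, to 1 with only the compared groups fitted and to 1 with near-identical libraries averaged. With a pseudocount of 0.1, 15 genes (8 higher, 7 lower) in place of 8 were called between E3.5 and E4.5, and 5 in place of 3 between E5.5 and E6.5. Leaving out 1 library at a time gave 12 to 14 calls for ESC-derived 3D against 2D EpiSCs, 10 to 11 for embryo-derived 3D against 2D EpiSCs, 15 to 17 for 2D EpiSCs against EpiLCs, 4 to 6 for ESC-derived and 13 to 14 for embryo-derived 3D EpiSCs against EpiLCs, and 1 to 6 between the origins. In the embryo it gave 7 to 8, 14 to 15, 2 to 4 and 14 to 16 for the 4 steps in order of age. The share of all genes called was not taken for these alternatives, so the counts are no result about these genes as a set. The cause of these shifts was not tested. Adding the replicate number as a block gave 13, 10, 16, 6, 14 and 4 calls in the culture comparisons in the order above and 8, 14, 3 and 15 in the embryo, the counts of the fits without it. Libraries with the same number had a mean correlation of deviations of -0.0299 in cultures and -0.0166 in embryos, so the number does not pair them. TPM holds no read depth, so the precision of genes near 0 TPM is not known beyond the spread of 3 libraries, and 3 of the 4 cultures hold a near-identical pair.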
